A study of Mus musculus with 4 samples.

Results

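Oxidative phosphorylation is carried out by 5 protein complexes of the inner mitochondrial membrane. Complexes I and II pass electrons from NADH and succinate to ubiquinone, complex III passes them on to cytochrome c, and complex IV to oxygen. Complexes I, III and IV pump protons as they do so, and complex V, the ATP synthase, uses the proton gradient to make ATP. Most subunits are encoded in the nucleus and imported, and a smaller set, which was not analysed here, is encoded by mitochondrial DNA. The genes described here are all nuclear genes of the count table whose symbols begin as the subunit families do, without pseudogenes marked as such. These beginnings are Nduf with a, b, c, s or v and a digit, Sdha to Sdhd, Uqcr, Cox4 to Cox8 and Atp5. There were 84 such genes among 24453 gene symbols. By their known place, 35 belong to complex I, 4 to complex II, 8 to complex III, 18 to complex IV and 15 to complex V. The other 4 symbols (Cox7a2l, Ndufa4l2, Atp5s and Atp5sl) are related genes that were counted with no complex. Ndufa4, first described as a complex I protein, was counted with complex IV.

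RNA was measured in epidermal cells from the back skin of mice on postnatal day 0, the day of birth, sorted for EpCAM, Sca1 and high α6-integrin. The 2 I53A libraries came from Ring1a-/- Ring1b-/I53A mice, which lack Ring1a and carry a null Ring1b allele over I53A, an allele whose product lacks the histone H2A ubiquitin ligase activity of Polycomb repressive complex 1. The 2 CTL libraries came from mice labelled only as control, with no allele named. The effect of I53A cannot be told apart from that of the missing Ring1a or of the null Ring1b allele, and the cell type in which alleles were deleted is not given in the sources used here. Nothing in the labels says that replicates were separate animals, so p-values measure the spread between these libraries.

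Regulators of nuclear respiratory genes, among them NRF1, the ETS factor GABP, YY1 and the estrogen-related receptors, bind short motifs close to transcription starts. A promoter window of 300 bases, from 250 before to 50 after the start (RefSeq, GRCm38.p6), was at hand for 66 of the 84 genes, in 71 windows. The NRF1 motif, a pair of GCGC-type ends around a short centre that is spelled out by its matches below, stood in 25.4% of these windows and in 4.60% of all 32851 windows of the genome table, on either strand. The ETS motif CCGGAAG stood in 22.5% and 8.86%, the YY1 motif AAGATGGC in 12.7% and 2.75%, and the estrogen-related receptor motif TCAAGGTCA in 2.82% and 0.423%. The letters of the 4 motifs share no overlap in the windows below, and a match is a description of letters, not of binding. Windows are shown for an abundant subunit of each complex, with matches in capitals, so that the promoters of genes whose transcripts are compared next can be read. Ndufs6 lies at chr13:73328433-73328732, Sdha at chr13:74350191-74350490, Uqcrh at chr4:116075021-116075320 and Cox6a1 at chr5:115348909-115349208, all on the minus strand. Atp5b lies at chr10:128083057-128083356 on the plus strand. It gave the most abundant transcript of the set, and its window holds no match to any of the 4 motifs.
Ndufs6: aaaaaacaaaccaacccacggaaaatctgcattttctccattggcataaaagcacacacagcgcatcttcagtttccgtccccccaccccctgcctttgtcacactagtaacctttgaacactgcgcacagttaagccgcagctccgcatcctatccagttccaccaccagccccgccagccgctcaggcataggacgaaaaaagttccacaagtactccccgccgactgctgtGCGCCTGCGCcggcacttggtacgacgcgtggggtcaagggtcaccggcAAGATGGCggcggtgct
Sdha: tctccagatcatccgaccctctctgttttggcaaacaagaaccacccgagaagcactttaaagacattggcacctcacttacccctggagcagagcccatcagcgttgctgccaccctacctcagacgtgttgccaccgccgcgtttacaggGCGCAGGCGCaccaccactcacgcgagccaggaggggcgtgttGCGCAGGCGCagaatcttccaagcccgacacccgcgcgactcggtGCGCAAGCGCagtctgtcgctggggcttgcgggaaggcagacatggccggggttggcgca
Uqcrh: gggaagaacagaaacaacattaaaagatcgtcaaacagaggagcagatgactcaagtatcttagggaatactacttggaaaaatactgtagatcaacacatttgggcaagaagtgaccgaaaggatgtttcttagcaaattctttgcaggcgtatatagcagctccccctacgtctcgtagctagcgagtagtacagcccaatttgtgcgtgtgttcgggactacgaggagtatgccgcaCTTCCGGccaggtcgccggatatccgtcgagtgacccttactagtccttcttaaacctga
Cox6a1: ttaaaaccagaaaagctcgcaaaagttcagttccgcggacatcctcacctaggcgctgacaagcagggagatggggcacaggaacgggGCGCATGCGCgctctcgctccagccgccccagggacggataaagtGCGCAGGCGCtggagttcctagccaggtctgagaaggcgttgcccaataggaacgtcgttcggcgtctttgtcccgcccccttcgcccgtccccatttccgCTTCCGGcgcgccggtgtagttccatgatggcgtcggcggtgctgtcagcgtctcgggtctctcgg
Atp5b: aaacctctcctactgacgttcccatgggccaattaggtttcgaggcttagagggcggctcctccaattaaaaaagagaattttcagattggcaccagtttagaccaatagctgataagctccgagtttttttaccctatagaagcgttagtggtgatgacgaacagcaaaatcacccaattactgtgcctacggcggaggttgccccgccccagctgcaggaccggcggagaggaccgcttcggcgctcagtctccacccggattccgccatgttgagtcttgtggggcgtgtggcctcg

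None of the 84 genes passed the test between I53A and CTL epidermis, in either direction. Of the 84, 77 passed the low-count filter, and 0 of these were called higher or lower by edgeR's quasi-likelihood test at a Benjamini-Hochberg adjusted p under 0.05. Over all 14550 tested genes 6.71% were called, 5.68% higher and 1.04% lower in I53A. DESeq2 and limma-voom also called 0 of the 77. At an unadjusted p under 0.05 there was 1, Ndufa13, lower in I53A, against 18.7% of all tested genes in either direction and 5.69% on the lower side. Its adjusted p of 0.266 in edgeR was the smallest of the set.

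The estimates were small and leaned to lower values in I53A, but that lean rested on I53A replicate 1 and on the treatment of transcript length. Log2 fold changes of I53A over CTL ran from -0.59 to 0.31 with a median of -0.11, against -0.01 over all tested genes. They were below 0 for 60 of 77 genes, against 51.6% of all tested genes. Without I53A replicate 1 the median was 0.05 and 29 genes were below 0, and without I53A replicate 2 it was -0.31 with 68 below 0. Offsets for GC content and transcript length, fitted per library, gave a median of 0.07 with 31 below 0, so the direction of the set's median flips without I53A replicate 1 and with these offsets. It kept its sign under RLE and upper-quartile scaling. In 15 genes both I53A libraries lay below both CTL libraries, a share of 19.5% against 23.5% of all tested genes. In 3 genes both lay above, against 24.5% of all tested genes. These 3, named after their values were seen, were Ndufa7, Ndufa5 and Ndufa4.

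**Figure D1:**
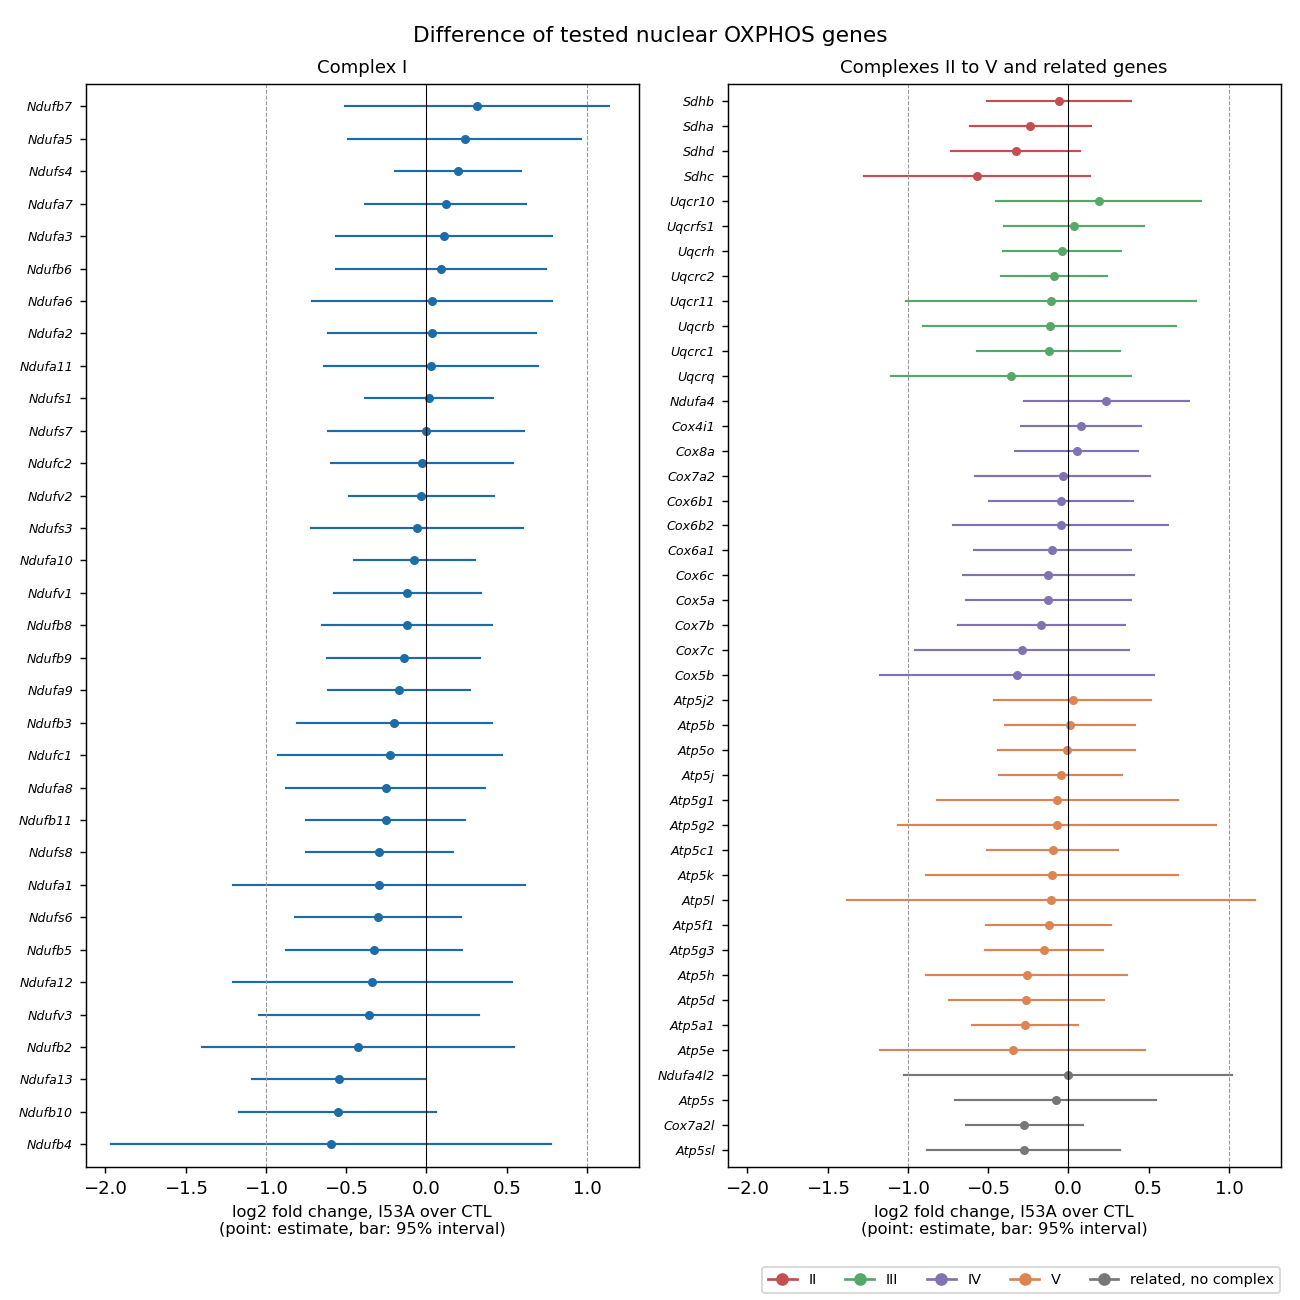
Log2 fold change of I53A over CTL for 76 of the 77 tested genes (points) with its 95% interval (bars), complex I on the left and the other complexes on the right; dashed lines mark a 2-fold difference either way. Estimates lie between -0.59 and 0.31, and every interval but that of Ndufa13 includes 0.

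The intervals give the range of differences that these libraries allow. For 61 of the 77 genes the 95% interval lay within a 2-fold difference either way, against 57.3% of all tested genes, and for 21 it lay within 1.5-fold, against 26.6%. Only the intervals of genes outside the 61 reach past 2-fold.

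The I53A libraries differed from each other more than the groups did. Set against each gene's mean over the 4 libraries, the median log2 deviation of the 77 genes was -0.25 in I53A replicate 1 and 0.11 in I53A replicate 2, against 0.00 in CTL replicate 1 and 0.13 in CTL replicate 2. I53A replicate 1 was the lowest of the 4 libraries for 54 of the 77 genes, and it was below I53A replicate 2 for 65. Over all tested genes it was the lowest for 4246 of 14550. Read as summed counts per 1000000 (CPM, on the TMM-scaled library size), the 84 genes took 3741 and 4886 CPM in I53A replicates 1 and 2, against 4538 and 4654 CPM in CTL replicates 1 and 2. The I53A libraries thus lie on both sides of the CTL libraries.

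**Figure D2:**
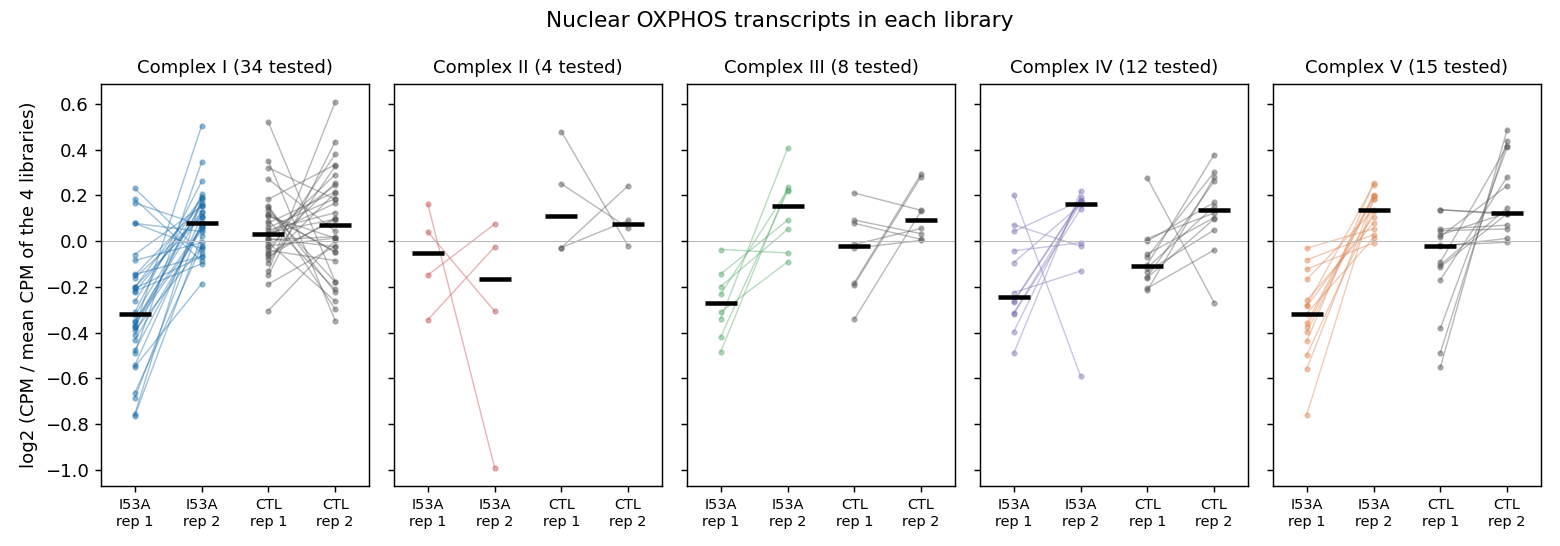
CPM of each tested gene relative to its mean over the 4 libraries (log2, vertical axis) in the I53A and CTL libraries (horizontal axis), one panel per complex; dots joined by a line are 1 gene in the replicates of a group and black bars are medians. In complexes I, III, IV and V the bar of I53A replicate 1 is the lowest, and in complex II both I53A bars lie below both CTL bars.

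The counts behind these values were 15966412 and 21543385 in I53A replicates 1 and 2, and 17010432 and 15505018 in CTL replicates 1 and 2, of which the 84 genes took 0.368% and 0.515% in I53A and 0.448% and 0.453% in CTL. As a check of the labels, Ring1 (Ring1a) stood at 2.54 and 2.91 CPM in I53A and at 24.2 and 33.3 CPM in CTL, and Rnf2 (Ring1b) at 58.9 and 59.1 CPM in I53A and at 58.5 and 45.8 CPM in CTL. Of the markers of the sort, Epcam was at 133 and 159 CPM in I53A and at 107 and 85.9 CPM in CTL. Itga6 (α6-integrin) was at 1006 and 784 CPM in I53A and at 980 and 928 CPM in CTL. Ly6a (Sca1) was at 18.6 and 16.4 CPM in I53A and at 17.1 and 22.7 CPM in CTL. Their log2 fold changes were 0.59, -0.09 and -0.19, none called. Those of Krt5 (-0.60), Krt14 (-0.58) and Trp63 (-0.17) were below 0 too, and Krt15, a basal keratin, was called lower in I53A. The summed markers of sorted epidermis ran from 17962 to 20489 CPM in I53A and from 26500 to 29991 CPM in CTL, with 1 of 7 called, and those of suprabasal cells from 2034 to 3605 CPM in I53A and from 3142 to 3752 CPM in CTL, with 0 of 4 called. Fibroblast markers ran from 1867 to 2079 CPM in I53A and from 1378 to 1447 CPM in CTL, with Dcn, 1 of 8, called higher. Markers of skeletal muscle, which is rich in mitochondria, summed to 21.9 and 30.3 CPM in I53A and to 35.7 and 35.2 CPM in CTL, with 1 of 10 tested called (Myh4, at 0 in both I53A libraries), and those of brown fat to 9.99 and 20.2 CPM in I53A and to 11.1 and 13.7 CPM in CTL, with 0 of 4 tested called. Immune markers summed to 159 and 363 CPM in I53A and to 163 and 336 CPM in CTL, with 0 of 4 tested called, and like the suprabasal sum this was lower in replicate 1 of each group. No marker of these lists was at 0 in all 4 libraries. Their part in the values below was not tested, and in sorted bulk cells fewer cells of a type and less RNA per cell cannot be told apart.

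Complex I, the NADH dehydrogenase, had no called subunit among 34 tested of 35. Its summed level was 612 and 769 CPM in I53A replicates 1 and 2, against 760 and 741 CPM in CTL replicates 1 and 2, so the groups overlap. The median log2 fold change was -0.12, with 24 of 34 below 0, and it was 0.04 without I53A replicate 1. The 7 core subunits, which hold the flavin and the iron-sulfur clusters, had a median of -0.06 with 6 below 0. The 27 tested accessory subunits, which surround and stabilise the core, had a median of -0.17 with 18 below 0.

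Among the most abundant complex I transcripts per kilobase were those of Ndufb9, an accessory subunit of the membrane arm, and Ndufs6, an accessory subunit with a zinc site. Ndufb9 measured 32.8 and 47.8 CPM in I53A, against 40.3 and 49.2 CPM in CTL. The groups overlap, and its log2 fold change was -0.14 ± 0.21 (SE). Ndufs6, whose promoter window holds an NRF1 and a YY1 match, measured 15.7 and 22.0 CPM in I53A and 22.3 and 24.5 CPM in CTL, and its groups lay apart by a narrow gap. Its log2 fold change was -0.30 ± 0.23 with an adjusted p of 0.577 (edgeR). Its exons overlap those of Mrpl36 on the opposite strand, and it has a near-identical copy elsewhere in the genome.

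The members of complex I with the lowest estimates were Ndufb4, Ndufb10 and Ndufa13. Ndufa13, also known as GRIM-19 and part of the membrane arm, measured 14.4 and 22.5 CPM in I53A replicates 1 and 2, against 28.6 and 26.0 CPM in CTL replicates 1 and 2. Its 2 I53A libraries lay below both CTL libraries, with a log2 fold change of -0.54 ± 0.24 (SE) and an adjusted p of 0.266. Ndufb10, an accessory subunit of the membrane arm, measured 10.6 and 18.3 CPM in I53A, against 20.5 and 22.7 CPM in CTL. Here too the groups did not overlap, at a log2 fold change of -0.55 ± 0.27 and an adjusted p of 0.329. Ndufb4 was near the filter at 0.891 and 1.15 CPM in I53A and 1.19 and 1.99 CPM in CTL, and its 95% interval ran from -1.97 to 0.78.

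The size of the Ndufa13 and Ndufb10 estimates depends on I53A replicate 1. Ndufa13 was at -0.27 without that library and at -0.92 without I53A replicate 2, where its adjusted p was 0.0283. Ndufb10 was at -0.23 and -1.02 in the same settings, with an adjusted p of 0.0297 in the second. Leaving out I53A replicate 2 raised the share of called genes over the whole table too, to 10.4%. Exons of Ndufa13 overlap Tssk6 on the opposite strand, and Ndufb4 has a near-identical copy elsewhere in the genome.

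On the higher side, Ndufb7, an accessory subunit facing the intermembrane space, measured 5.60 and 10.3 CPM in I53A, against 5.89 and 7.29 CPM in CTL. Ndufa5, an accessory subunit of the matrix arm, measured 7.32 and 6.83 CPM in I53A, against 6.49 and 5.43 CPM in CTL. The groups overlapped for Ndufb7 and lay apart for Ndufa5, with log2 fold changes of 0.31 ± 0.37 and 0.24 ± 0.33 (SE) and adjusted p of 0.741 and 0.787 (edgeR). Ndufa7 measured 17.0 and 16.6 CPM in I53A, against 15.7 and 15.2 CPM in CTL, a narrow separation at a log2 fold change of 0.12 ± 0.23.

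Complex II, succinate dehydrogenase, is the smallest complex and the only one with all its subunits encoded in the nucleus, and it also serves the citric acid cycle. It was the one complex whose summed level was lower in both I53A libraries, at 245 and 197 CPM, than in both CTL libraries, at 276 and 272 CPM. The ratio of I53A to CTL was 0.808, with means of 221 ± 34.0 CPM in I53A and 274 ± 2.21 CPM in CTL (SD, n = 2 each). None of its 4 genes was called, all 4 estimates were below 0, and the median log2 fold change was -0.28. That median stayed below 0 under each alternative run, between -0.29 and -0.14, including the offsets for GC content and length at -0.20. Whether complex II differs from the other complexes was not tested.

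Which library was low differed between the complex II genes. Sdhc, a membrane anchor that binds heme and ubiquinone, measured 62.2 and 28.0 CPM in I53A replicates 1 and 2, against 77.4 and 54.7 CPM in CTL replicates 1 and 2. Its I53A replicate 1 lay between the CTL libraries and its I53A replicate 2 was far below them, giving a log2 fold change of -0.57 ± 0.32 (SE) with a 95% interval from -1.27 to 0.14. Without I53A replicate 1 it was at -1.24 with an adjusted p of 0.00115, where 10.2% of all genes were called, and without I53A replicate 2 it was at -0.09. Sdhd, the other membrane anchor, measured 36.8 and 45.9 CPM in I53A, against 55.5 and 48.6 CPM in CTL. Its groups did not overlap, at a log2 fold change of -0.33 ± 0.18 and an adjusted p of 0.390.

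The matrix subunits of complex II are Sdha and Sdhb. Sdha, the flavoprotein that oxidises succinate and whose promoter window holds 3 NRF1 matches, measured 125 and 97.9 CPM in I53A, against 119 and 143 CPM in CTL. Sdhb, the iron-sulfur subunit, measured 22.0 and 25.7 CPM in I53A, against 23.9 and 26.0 CPM in CTL. Both overlapped between the groups, with log2 fold changes of -0.24 ± 0.17 and -0.06 ± 0.20 (SE). In fold terms the 95% interval of Sdhb ran from 0.703 to 1.31 and that of Sdha from 0.654 to 1.10. Estimates of Sdha, Sdhc and Sdhd were below 0 in all 17 settings run, the main one included, and that of Sdhb in 13. This was not particular to complex II. Genes of other complexes, among them Ndufa13, Ndufb10, Uqcrc2, Uqcrq, Cox5b and Atp5a1, were also below 0 in all 17.

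Complex III, the cytochrome bc1 complex, had 8 of 8 genes tested and 0 called. Summed levels were 255 and 331 CPM in I53A, against 305 and 310 CPM in CTL, so that the I53A libraries lay on both sides of CTL. Its median log2 fold change was -0.10 with 6 of 8 below 0. It was 0.12 without I53A replicate 1, 0.02 without CTL replicate 2 and 0.16 with offsets for GC content and length. Uqcrh, the hinge protein that helps dock cytochrome c, had the highest level of the complex per kilobase and measured 48.7 and 57.3 CPM in I53A, against 53.3 and 55.9 CPM in CTL. Uqcrc1, a core protein on the matrix side, measured 74.8 and 116 CPM in I53A, against 106 and 102 CPM in CTL. Both overlapped between the groups.

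Among the small complex III subunits, Uqcrq, which sits beside cytochrome b, had the lowest estimate of the complex. Its level was 4.77 and 5.55 CPM in I53A, against 6.85 and 6.49 CPM in CTL, with groups that did not overlap and an estimate of -0.36 ± 0.33 on the log2 scale (SE; adjusted p = 0.663, edgeR). Uqcr10, another small subunit, measured 15.2 and 25.5 CPM in I53A, against 15.2 and 21.1 CPM in CTL. Uqcrfs1, the Rieske iron-sulfur protein that takes electrons from ubiquinol, measured 33.4 and 45.8 CPM in I53A, against 38.4 and 39.3 CPM in CTL. These were the highest estimates of the complex, at 0.19 ± 0.29 and 0.03 ± 0.20 on the log2 scale, and both overlapped. Uqcr10 has a near-identical copy, so its counts are uncertain.

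Complex IV, cytochrome c oxidase, had 12 of 18 genes tested and 0 called. Summed levels were 295 and 355 CPM in I53A, against 308 and 364 CPM in CTL, and replicate 1 was the lower library of both groups. The median log2 fold change was -0.07 with 9 of 12 below 0, and it turned to 0.13 without I53A replicate 1, 0.06 without CTL replicate 2 and 0.16 with offsets for GC content and length. The subunits Cox6a1, Cox8a and Cox4i1 were the highest of the complex per kilobase. Cox6a1, the widely expressed form of subunit VIa, measured 38.9 and 54.3 CPM in I53A, against 41.7 and 58.8 CPM in CTL. Cox4i1, the widely expressed form of subunit IV, measured 55.2 and 65.8 CPM in I53A, against 53.7 and 60.9 CPM in CTL. Cox8a, the widely expressed form of subunit VIII, measured 47.5 and 44.5 CPM in I53A, against 40.4 and 48.3 CPM in CTL. All of them overlapped between the groups, and their log2 fold changes were -0.10, 0.08 and 0.05.

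The lowest estimates of complex IV were those of Cox5b, the zinc-binding subunit on the matrix side, and Cox7c, a small membrane subunit. Cox5b measured 3.88 and 4.14 CPM in I53A, against 4.23 and 5.90 CPM in CTL, and Cox7c 18.3 and 10.6 CPM in I53A, against 15.2 and 19.6 CPM in CTL. For Cox7c the lower I53A library was replicate 2, unlike most of the set, and both genes have near-identical copies. Ndufa4, a peripheral subunit of the complex, measured 16.5 and 18.2 CPM in I53A, against 13.9 and 15.6 CPM in CTL. Its groups did not overlap, at a log2 fold change of 0.24 ± 0.23 (SE) and an adjusted p of 0.676 (edgeR).

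Several complex IV subunits have second forms known from heart and skeletal muscle, lung or testis, and these were scarce in the sorted cells. Cox6a2, the muscle form of subunit VIa, had 0 and 1 counts in I53A and 0 and 1 counts in CTL. Cox8b, another form of muscle, had 0 and 2 counts in I53A and 1 and 1 counts in CTL. Both stayed at or below the floor of 3 counts in each library, which is 0.191 and 0.132 CPM in I53A and 0.179 and 0.199 CPM in CTL. Cox7a1, the muscle form of subunit VIIa, had 4 and 12 counts in I53A and 8 and 1 counts in CTL, and Cox4i2, known from lung, had 14 and 5 counts in I53A and 4 and 7 counts in CTL. Cox7b2 and Cox8c had 0 counts in all 4 libraries. The exception was Cox6b2, known as a testis form of subunit VIb, at 9.16 and 12.4 CPM in I53A and 13.3 and 9.14 CPM in CTL, which overlap. Its level per kilobase, 20.2 CPM in I53A and 21.0 CPM in CTL, compares with 40.2 CPM in I53A and 41.6 CPM in CTL for the widely expressed Cox6b1.

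Complex V, the ATP synthase, took most of the summed level of the set, and 0 of its 15 genes were called. Its sum was 2260 and 3154 CPM in I53A, against 2796 and 2877 CPM in CTL. Without Atp5b the sum was 809 and 1066 CPM in I53A, against 1061 and 1100 CPM in CTL, so the groups overlap in both. The median log2 fold change was -0.10 with 13 of 15 below 0. It was 0.06 without I53A replicate 1, 0.03 without CTL replicate 2 and 0.08 with offsets for GC content and length.

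Atp5b, the catalytic beta subunit of the F1 head, was the most abundant of all 84 genes per kilobase, at 923 CPM in I53A and 916 CPM in CTL. It measured 1450 and 2087 CPM in I53A replicates 1 and 2, against 1734 and 1777 CPM in CTL replicates 1 and 2. The I53A libraries lay on both sides of CTL, and the log2 fold change was 0.01 ± 0.18 (SE), a fold of 1.01 with a 95% interval from 0.760 to 1.34. This gene alone made up 38.8% and 42.7% of the counts of the set in I53A and 38.2% and 38.2% in CTL.

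The other subunits of the F1 head were as follows. Atp5a1, the alpha subunit that alternates with beta, measured 400 and 503 CPM in I53A, against 547 and 542 CPM in CTL. Its groups did not overlap, at a log2 fold change of -0.27 ± 0.15 (SE) and an adjusted p of 0.391 (edgeR). Without I53A replicate 2, which leaves I53A replicate 1 alone in its group, Atp5a1 was called lower. Its estimate there was -0.45, the lowest of the 17 settings run, which reached up to -0.11. Atp5c1, the gamma subunit of the rotating shaft, measured 111 and 164 CPM in I53A, against 147 and 148 CPM in CTL. Atp5e, the epsilon subunit of the shaft, measured 4.84 and 9.30 CPM in I53A, against 7.68 and 10.9 CPM in CTL. Atp5d, the delta subunit of the shaft, named because it was called in another setting, measured 68.5 and 115 CPM in I53A, against 111 and 109 CPM in CTL. These shaft genes all overlapped between the groups, with I53A replicate 1 the lowest library of the 4 for each. Atp5d was at -0.26 in log2 fold change over all libraries, at 0.06 without I53A replicate 1 and at -0.69 without I53A replicate 2, where its adjusted p was 0.0101. Atp5j2, a small subunit of the membrane part, was nearly level, at 17.1 and 18.2 CPM in I53A against 17.3 and 17.4 CPM in CTL.

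**Figure D3:**
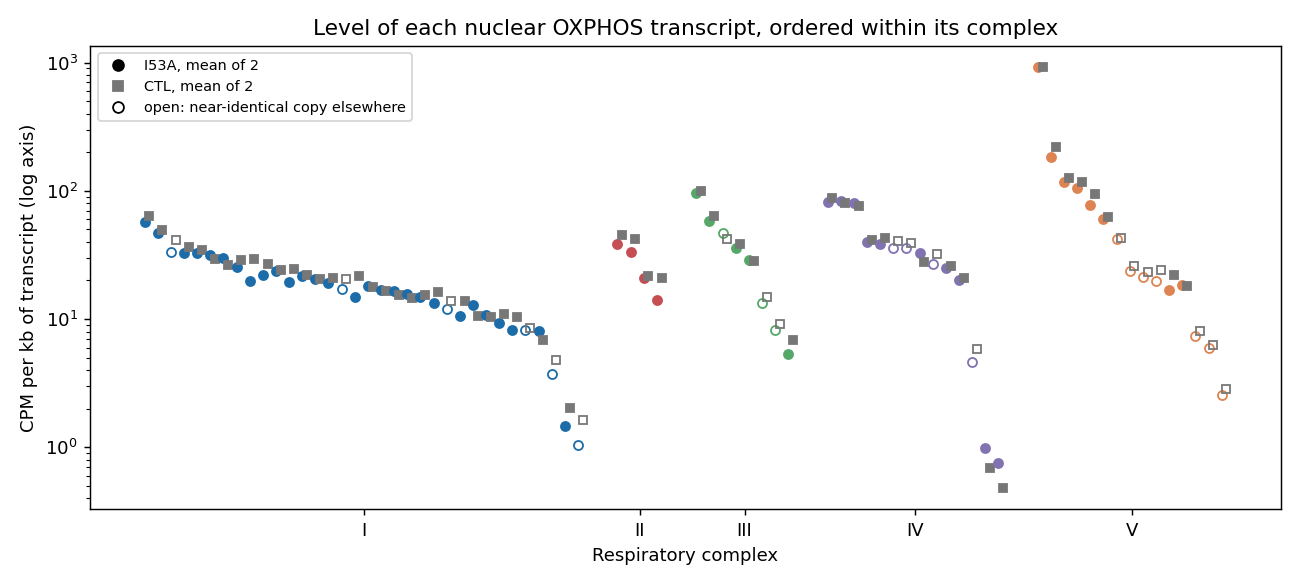
Level of each gene in CPM per kilobase of transcript (log axis) by complex, ordered from high to low, as the mean of the I53A libraries (circles) and of the CTL libraries (grey squares); open symbols have a near-identical copy elsewhere in the genome, and Ndufs5, Cox8b, Cox6a2, Cox7b2, Cox8c and the 4 related genes are not drawn. Atp5b stands highest at 923 in I53A and 916 in CTL, and the open symbols lie at 44.3 or below in the mean of the 4 libraries.

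Levels per kilobase spanned a wide range even within a complex, although subunits of a complex are mostly present in equal numbers. Over the 73 common subunits they ran from 0 to 920 CPM per kilobase, with a median of 22.4. The low end holds genes with and without a near-identical copy of their coding sequence elsewhere (at least 95% identity over at least 50% of its length). Most such copies are pseudogenes, and reads of genes with a copy cannot be placed with certainty. The 21 common subunits with such a copy had a median of 14.1 CPM per kilobase, with a range from 0 to 44.3. The 52 without had a median of 25.1, with a range from 1.74 to 920. The part of copies in low levels was not tested. Of all 84 genes, 22 have such a copy and 42 a copy or an exon overlap with another gene, as Cox4i1 has with Emc8 and Atp5a1 with Haus1 on opposite strands. Ndufs5, with 1 copy, was listed at 0 counts in all 4 libraries, and Atp5l, with 8 copies, was at 2.71 CPM per kilobase. Over the 37 tested genes with neither a copy nor an exon overlap the median log2 fold change was -0.07, with 27 below 0 and 0 called. Over the 40 tested genes with a copy or an overlap it was -0.12, with 33 below 0 and 0 called. Of the 21 tested genes with a copy, 20 were below 0.

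Among the related genes outside the complexes, Cox7a2l, which helps join complexes III and IV into supercomplexes, measured 48.4 and 48.4 CPM in I53A, against 63.0 and 54.1 CPM in CTL. Its groups did not overlap, at a log2 fold change of -0.27 ± 0.16 (SE) and an adjusted p of 0.434 (edgeR), and it has a near-identical copy. Atp5sl, known in humans as a complex I assembly factor, measured 11.8 and 19.7 CPM in I53A, against 19.0 and 19.8 CPM in CTL. Atp5s, a coupling factor of the ATP synthase, measured 9.03 and 8.81 CPM in I53A, against 9.11 and 9.74 CPM in CTL. Ndufa4l2, a relative of Ndufa4 that is induced by hypoxia, measured 4.77 and 3.39 CPM in I53A, against 2.62 and 5.50 CPM in CTL, and its groups overlapped.

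Of other genes of mitochondrial metabolism, 0 were called in each mitochondrial list, while the medians of these lists lay on both sides of 0. How the medians of these lists depend on I53A replicate 1 or on transcript length was not tested. Of 16 complex I assembly factors, 14 had estimates below 0, against 51.6% of all tested genes, and the median log2 fold change was -0.39. Acad9, one of them, had the smallest p of its list, with 36.5 and 49.1 CPM in I53A against 62.7 and 61.7 CPM in CTL (log2 fold change -0.53 ± 0.18, SE; adjusted p = 0.132, edgeR). Medians were 0.08 over 4 complex II, 0.08 over 6 complex III, -0.13 over 21 complex IV and -0.18 over 3 complex V assembly factors. Lrpprc, which stabilises mitochondrial messenger RNAs, was at 60.8 and 68.2 CPM in I53A against 81.5 and 88.7 CPM in CTL, with an adjusted p of 0.186.

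Of 78 tested genes of the mitochondrial ribosome, 53 were below 0, at a median of -0.08, and the 19 genes of the citric acid cycle had a median of -0.14. Ogdh, the first subunit of the oxoglutarate dehydrogenase, measured 175 and 177 CPM in I53A, against 214 and 211 CPM in CTL, with groups apart and an adjusted p of 0.317. Carriers of electrons, phosphate and nucleotides (21 tested) had a median of -0.14, and 5 nuclear subunits with other symbols a median of -0.12. The 19 regulators of mitochondrial genes had a median of -0.14 and 0 calls. Nrf1, whose motif was counted in the promoter windows, measured 36.8 and 35.0 CPM in I53A, against 50.8 and 54.0 CPM in CTL. Its groups did not overlap, and with a log2 fold change of -0.55 ± 0.17 (SE) it came closest of the lists without a call, at an adjusted p of 0.0870.

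Glycolysis, the cytosolic route to ATP, had 1 called gene of 20 tested, a share of 5%, against 6.71% of all tested genes. Eno2, the neuronal form of enolase, measured 17.4 and 15.8 CPM in I53A, against 5.89 and 3.58 CPM in CTL. It rose in I53A with a log2 fold change of 1.79 ± 0.31 (SE) and an adjusted p of 0.00701, while 13 of the 20 genes had estimates below 0 and the median of the list was -0.20.

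**Figure D4:**
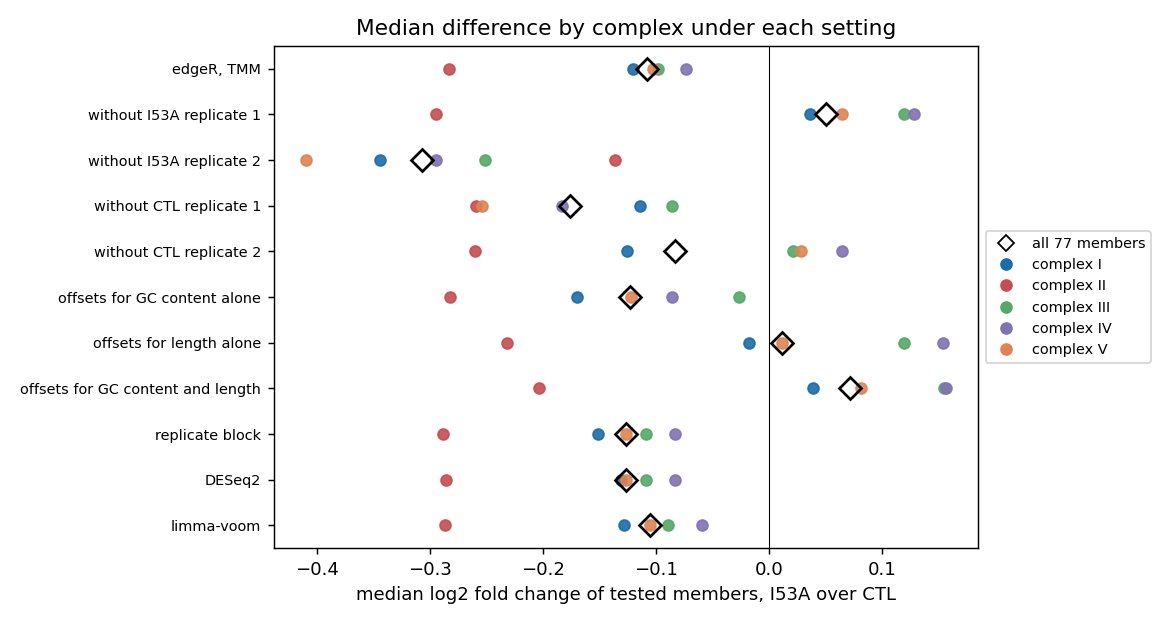
Median log2 fold change of I53A over CTL (horizontal axis) over the 77 tested genes (open diamonds) and by complex (dots) for the main setting and 10 alternatives (rows). The diamond lies at -0.11 in the main setting, at -0.31 without I53A replicate 2 and at 0.05 without I53A replicate 1, and the complex II dot is below 0 in every row.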

How the data were processed

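RNA-seq libraries were analysed from 2 I53A and 2 CTL samples of sorted newborn epidermis. The values deposited are the authors' raw counts for each gene symbol, 1 library a file, as whole numbers. Amplification was by the Ovation system and reads were single, of 100 nucleotides, per the labels' protocols. Tools listed, without a role, are HTSeq 0.6.1, TopHat2 2.0.13, DESeq2 1.6.3 and Cufflinks 2.2.1, with the build mm10, per the submitters' processing notes. Which annotation and strand setting were used is not given in the sources used here, so reads of genes that overlap on opposite strands may not be separated.

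From these counts, genes were filtered with filterByExpr (minimum count 10, minimum total 15), scaled by TMM and tested two-sided by the quasi-likelihood method of edgeR 4.0.16 (R 4.3.3), without a block. Benjamini-Hochberg adjustment ran over all 14550 tested genes. CPM values use the TMM-scaled library size, log2 fold changes are I53A over CTL, and 95% intervals come from the SE and degrees of freedom of the fit. Transcript length, GC content and coordinates came from GENCODE M21 (GRCm38), which held 98.5% of the table's symbols. Chi-square per degree of freedom between replicates was 44.3 in I53A and 13.5 in CTL, which exceeds sampling noise, and no libraries were merged. Reads carry no molecular identifiers, so floors of 3 counts cover counting error only. The test was checked on simulated counts.

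The genes, the lists of related genes and the tests were chosen with earlier results of these data known. Named in the text are the 3 highest genes per kilobase and the 2 highest and 2 lowest estimates of each complex, all of complex II, all second isoforms, called genes of related lists or otherwise the gene of smallest p, and genes stated to be chosen after their values were seen; 1 gene under this rule is not reported here. The alternatives tried were limma-voom (version 3.58.1) and DESeq2 1.42.0, scaling by upper quartile or RLE, other low-count filters, the replicate block, loess offsets (span 0.5) for GC content and length, and leaving out each library.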

Additional observations from a re-analysis of the deposited data

How the results depend on the processing

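Over the alternatives run, 0 of the 77 tested genes were called higher in any, and calls on the lower side appeared only where an I53A library was left out or where offsets for GC content and length were joined with the replicate block. With the replicate number as a block alone, edgeR called 1274 genes over the whole table against 977, and again 0 of the 77, with the smallest adjusted p at Sdhc (0.0503). The deviations of same-numbered libraries correlated at 0.0353 over all genes and at 0.167 over the 77, and with only 2 libraries a group and no label that ties them, the numbers were not taken as pairs. Offsets for GC content and length moved the median log2 fold change to 0.071 over the 77 genes, 0.039 in complex I, -0.20 in II, 0.16 in III, 0.16 in IV and 0.081 in V. Joined with the replicate block they gave 1698 calls over the table, 1 lower gene of the set (Sdhc, -0.66, adjusted p = 0.0117) and medians of 0.057 over all, 0.0077 in I, -0.21 in II, 0.12 in III, 0.15 in IV and 0.065 in V. Offsets for length alone, chosen after seeing the data, gave 0.012 over all, -0.017 in I, -0.23 in II, 0.12 in III, 0.15 in IV and 0.012 in V. Those for GC content alone left the median over all at -0.12. Leaving out 1 library at a time, genes called over the table ran from 297 (without CTL replicate 1) to 1520 (without I53A replicate 2), and lower genes of the set from 0 to 4. The medians ran from -0.31 to 0.050 over all, -0.34 to 0.037 in I, -0.29 to -0.14 in II, -0.25 to 0.12 in III, -0.29 to 0.13 in IV and -0.41 to 0.065 in V. In these fits a lone library is taken to vary as the other group does, and the cause of these shifts was not tested. DESeq2, limma-voom, both other scalings and both other filters kept each of these medians within the spread between replicates.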
